A study of Homo sapiens with 6 samples.

Results

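The genes described here are textbook transcriptional targets of the tumour suppressor p53, measured in PC3, a human prostate cancer cell line that is known to lack functional p53. The list named 9 genes, and 6 of them (MDM2, SESN1, ZMAT3, XPC, PLK2 and GADD45A) had at least 1 probe set annotated to that gene alone. Those 6 genes were read by 10 probe sets out of the 19064 single-gene probe sets and 22277 probe sets in all. BTG2, TP53INP1 and RRM2B had no probe set under a single gene symbol in the annotation used and were not analysed here.

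RNA was hybridised to 6 arrays, 3 labelled PSMA (replicates 4 to 6) and 3 labelled control (replicates 1 to 3). Cells of the first group were said to carry a pLNCX-PSMA plasmid, which encodes the FOLH1 gene product, prostate-specific membrane antigen (PSMA). Cells of the control group were called wild type in titles and vector only in the source label, so it is not settled whether they carried the empty vector. Both groups were PC3 cells grown in RPMI and the protocol gives puromycin selection, but not whether a clone or a pool was used, nor whether replicates were separate cultures. The p-values therefore measure only the spread between these arrays, which may be technical.

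Signal on the FOLH1 probe sets ran against the labels. The single-gene FOLH1 probe set averaged 28.1 ± 3.80 on arrays labelled PSMA and 60.5 ± 0.914 on arrays labelled control (SD, n = 3 each; intensity in arbitrary units), and the brightest probe set shared with the paralog FOLH1B averaged 12.5 ± 3.44 and 480.8 ± 65.3 on the same arrays. Every direction below follows the labels as deposited, and "higher" and "rose" are said of the group labelled PSMA, the one with less FOLH1 signal. All 5 epithelial markers, among them the keratin gene KRT8 and EPCAM, were above the median of all values on every array by their brightest probe set. In limma, 4 of the 5 were lower on arrays labelled PSMA past an adjusted p of 0.05, against 32.8% of all tested genes. The median log2 difference of the 5 was -0.32. The fifth, KRT19, was at -0.09 and did not pass (adjusted p = 0.157). Of the other markers, 7 of 7 leucocyte probe sets and 13 of 14 fibroblast and endothelial probe sets were at or below the median of all values (52.5) on every array, as were 7 of 7 for the androgen-driven genes KLK2, KLK3 and TMPRSS2. A control for 28S rRNA (its middle part) averaged 675 ± 4.29 on arrays labelled PSMA and 1498 ± 63.1 on arrays labelled control. The 3'/5' ratio of GAPDH was 1.36 ± 0.0872 and 1.30 ± 0.0668 on the same arrays. That of ACTB was higher, at 4.44 ± 0.757 on arrays labelled PSMA and 4.61 ± 0.658 on arrays labelled control. LUM, a fibroblast marker below that median on every array, averaged 6.26 ± 1.16 on arrays labelled PSMA and 35.1 ± 7.04 on arrays labelled control. The part of RNA quality and of these markers in the results was not tested.

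p53 is a transcription factor that is held low by the ubiquitin ligase MDM2 and accumulates after DNA damage and other stress. It binds paired decamers in the DNA near its targets, which include its own inhibitor MDM2 and genes that stop the cell cycle, repair DNA, restrain growth signalling or kill the cell. Cells without p53 can still transcribe many of these genes, because other stress and growth factors act on the same promoters.

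Of the 9 listed genes, 6 (BTG2, XPC, ZMAT3, PLK2, SESN1 and MDM2) had at least 1 window in the set of RefSeq start windows used here (GRCh38.p14). They had 12 windows in all, each holding 250 bases before and 50 after an annotated start. GADD45A, TP53INP1 and RRM2B had no window in that set and were not searched. The windows were searched for the p53 decamer consensus, which is its own reverse complement, so a search of either strand gives the same matches. A pair of decamers up to 13 bases apart, with both C and G core bases intact and at most 3 mismatches in all, was found for 4 of the 6 genes, MDM2, SESN1, PLK2 and ZMAT3. Such a pair was present for 15.3% of all 27305 genes with a window, and in 12.8% of all 35116 windows. A gene counted if any of its windows held a pair. MDM2, SESN1 and ZMAT3 had several windows, and not all of these held it. A decamer with no mismatch was found for SESN1 and PLK2, and for 8.06% of all genes (6.63% of windows).

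The 250 bases before the start are shown for MDM2, the feedback gene, for SESN1, and for PLK2 and XPC, the members that passed the test below. Capitals mark the pair with the fewest mismatches and, in PLK2, also the decamer with no mismatch, which begins 132 bases before the start and overlaps the end of the pair.
MDM2 downstream start, GRCh38.p14 chr12:68808767-68809016, strand plus: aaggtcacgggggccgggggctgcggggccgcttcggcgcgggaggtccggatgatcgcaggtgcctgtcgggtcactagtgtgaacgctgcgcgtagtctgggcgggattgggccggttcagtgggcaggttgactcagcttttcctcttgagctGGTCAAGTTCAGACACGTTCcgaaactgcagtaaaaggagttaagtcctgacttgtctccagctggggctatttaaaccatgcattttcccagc
SESN1 most downstream start, GRCh38.p14 chr6:109008989-109009238, strand minus: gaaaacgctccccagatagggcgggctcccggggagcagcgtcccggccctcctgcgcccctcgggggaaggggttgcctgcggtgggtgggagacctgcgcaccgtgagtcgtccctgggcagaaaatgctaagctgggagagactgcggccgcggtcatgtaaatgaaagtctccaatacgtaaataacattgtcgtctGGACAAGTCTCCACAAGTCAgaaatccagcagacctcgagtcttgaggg
PLK2 start, GRCh38.p14 chr5:58460087-58460336, strand minus: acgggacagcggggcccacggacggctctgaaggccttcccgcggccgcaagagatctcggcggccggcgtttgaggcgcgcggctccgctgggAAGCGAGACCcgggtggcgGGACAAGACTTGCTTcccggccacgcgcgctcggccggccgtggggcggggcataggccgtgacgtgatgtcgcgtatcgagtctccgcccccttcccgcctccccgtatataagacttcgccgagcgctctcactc
XPC start, GRCh38.p14 chr3:14178602-14178851, strand minus: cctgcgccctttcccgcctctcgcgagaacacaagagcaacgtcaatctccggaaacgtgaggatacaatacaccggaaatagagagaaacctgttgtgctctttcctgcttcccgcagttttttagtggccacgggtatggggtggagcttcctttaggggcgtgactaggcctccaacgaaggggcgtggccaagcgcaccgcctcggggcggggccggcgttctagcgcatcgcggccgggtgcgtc

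In MDM2 the pair began 94 bases before the start, had 2 mismatches and no gap, and lay before the downstream start, the one that p53 is known to use. In SESN1 it began 49 bases before the start with 3 mismatches and no gap. In PLK2 it began 156 bases before the start with 3 mismatches and a gap of 9 bases. The XPC window held no such pair, which says only that these letters are not in this window. A match is a description of sequence and no site was measured here.

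MDM2, the feedback inhibitor of p53, had low signal on all of its probe sets. It was read by 5 probe sets, and 4 of them stayed below the 25th percentile of all values (13.02) on every array, between 5.78 and 11.8. The second brightest probe set read 11.1, 10.6 and 8.21 on arrays labelled PSMA, against 10.5, 11.8 and 10.6 on arrays labelled control. The next one read 10.3, 10.9 and 9.63 on arrays labelled PSMA, against 9.43, 9.76 and 10.1 on arrays labelled control. The groups overlapped on both, and also on the 2 dimmest.

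The brightest MDM2 probe set read 18.3, 19.7 and 17.1 on arrays labelled PSMA, against 20.2, 22.5 and 19.9 on arrays labelled control. The groups did not overlap on it, and all 6 values lay between the 25th percentile and the median of the table. None of the MDM2 probe sets passed the filter, which asked for values above 52.5 on at least 3 of the 6 arrays. In limma without that filter, the log2 difference on the brightest was -0.18 (SE 0.08, adjusted p = 0.123), with a 95% interval from -0.36 to 0.00018 on the log2 scale, and the other 4 differences ran from -0.15 to 0.07 with adjusted p-values from 0.400 to 0.975. GCRMA shrinks low signals together, so differences among them are compressed and these probe sets give no measure of how little MDM2 transcript was present. The relative MDM4, also an inhibitor of p53, was dim too, at 8.53 ± 0.119 on arrays labelled PSMA and 7.81 ± 0.477 on arrays labelled control (log2 difference 0.13, adjusted p = 0.168 without the filter).

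**Figure D1:**
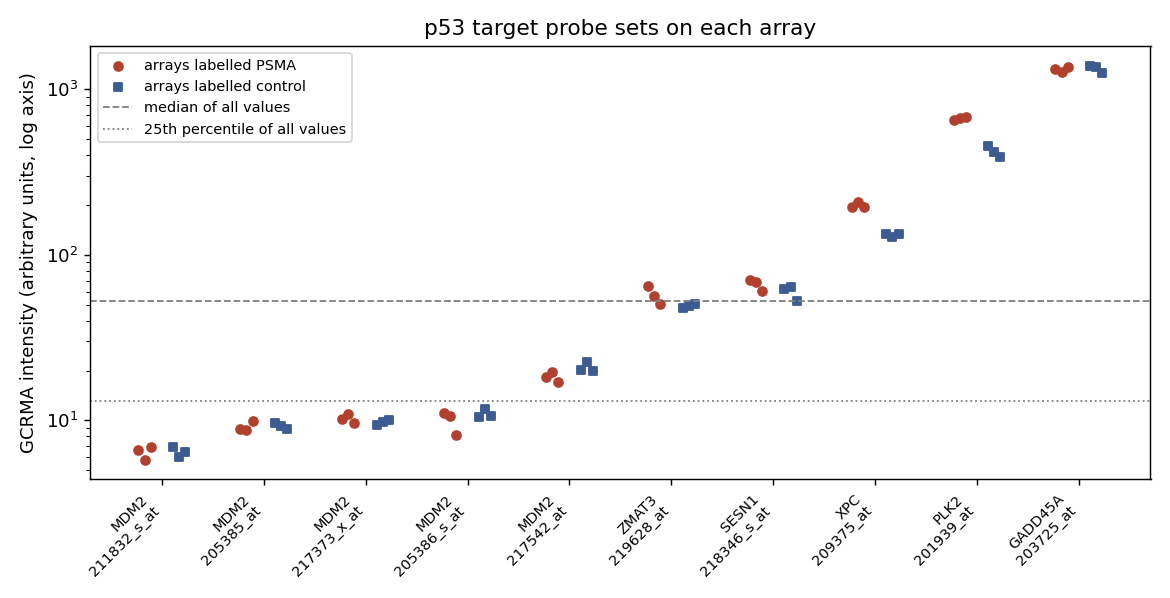
GCRMA intensity (arbitrary units, log axis) of each p53 target probe set on the 3 arrays labelled PSMA (circles) and the 3 labelled control (squares), with the median (52.5) and 25th percentile (13.02) of all values. The MDM2 probe sets lie below the median on every array, GADD45A lies at 1253 or more on every array, and the groups separate clearly on XPC and PLK2.

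Of the 6 genes, 4 passed the filter with 1 probe set each, SESN1, XPC, PLK2 and GADD45A, and each of these was above the median on all 6 arrays. In limma, PLK2 and XPC rose on arrays labelled PSMA and the other 2 did not pass an adjusted p of 0.05. That is 2 of 4, where 62.4% of the 7035 tested genes passed, 29.6% higher and 32.8% lower (60.6% of tested probe sets). The share among the members is close to the background and is not a result about them. The groups did not overlap for 2 of the 4, against 69.5% of all tested genes.

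PLK2 encodes a polo-like kinase that acts in centriole duplication and is induced by stress and by growth factors. Its probe set read 649.6, 673 and 682 on arrays labelled PSMA, against 453, 416 and 388 on arrays labelled control. Each array labelled PSMA lay above each array labelled control, with a gap much wider than the spread inside a group. The means were 668 ± 16.6 and 419 ± 32.4 (SD, n = 3 each), a log2 difference of 0.68 (SE 0.06, limma adjusted p = 3.2e-05), or 1.60-fold with a 95% interval of 1.45 to 1.76. The size of this difference was larger than that of 89.3% of tested genes.

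XPC encodes the damage sensor that starts nucleotide excision repair across the genome. Its probe set read 195, 209.9 and 194 on arrays labelled PSMA, against 134, 128 and 134 on arrays labelled control. The groups were again fully apart. Means of 199.6 ± 8.91 and 132 ± 3.80 (SD, n = 3 each) gave a log2 difference of 0.60 (SE 0.05, limma adjusted p = 2.0e-05), which is 1.51-fold with a 95% interval of 1.40 to 1.64, and its size was larger than that of 86.6% of tested genes.

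GADD45A encodes a small stress protein that binds cell cycle and MAP kinase partners after growth arrest or DNA damage. Its probe set gave 1328, 1275 and 1374 on arrays labelled PSMA, against 1392, 1368 and 1253 on arrays labelled control. The groups overlapped throughout. The log2 difference was -0.01 (SE 0.06, limma adjusted p = 0.865), its 95% interval ran from 0.907-fold to 1.08-fold, and only 3.64% of tested genes had a difference of this size or smaller.

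SESN1 encodes a sestrin, which restrains mTOR complex 1 when leucine is short and limits oxidative damage. It read 70.6, 68.6 and 60.2 on arrays labelled PSMA, against 62.0, 64.3 and 52.7 on arrays labelled control. In each group 1 array was lower than the others, and the groups overlapped. The log2 difference was 0.16 (SE 0.09, limma adjusted p = 0.157), with a 95% interval of 0.968-fold to 1.28-fold. The spread within groups, a pooled SD of 0.14 on the log2 scale, was at percentile 91.6 of the tested probe sets, whose median was 0.07, while XPC had 0.05, PLK2 0.08 and GADD45A 0.07.

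ZMAT3 encodes a zinc finger protein that binds RNA and regulates splicing and transcript stability. It read 64.5, 56.7 and 50.3 on arrays labelled PSMA, against 47.9, 49.3 and 50.2 on arrays labelled control. The lowest value of the first group stood just above the highest of the second. It was above 52.5 on 2 arrays and so was not tested. Without the filter its log2 difference was 0.21 (SE 0.09, limma adjusted p = 0.129), with a 95% interval of 0.997-fold to 1.34-fold.

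**Figure D2:**
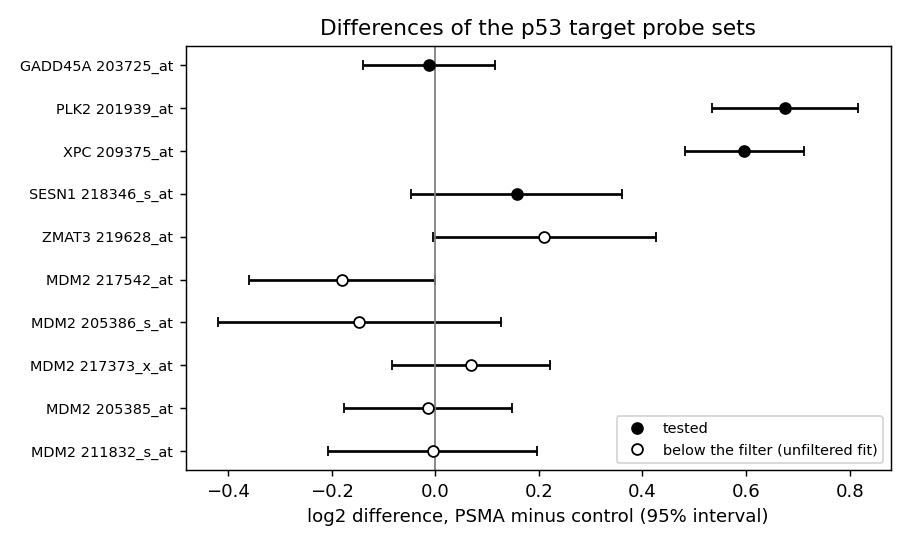
Log2 difference (PSMA minus control) of each p53 target probe set with its 95% interval from limma. Filled points were tested, open points were below the filter and come from the fit without it. Only the intervals of PLK2 and XPC lie clear of 0 among the tested probe sets.

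**Figure D3:**
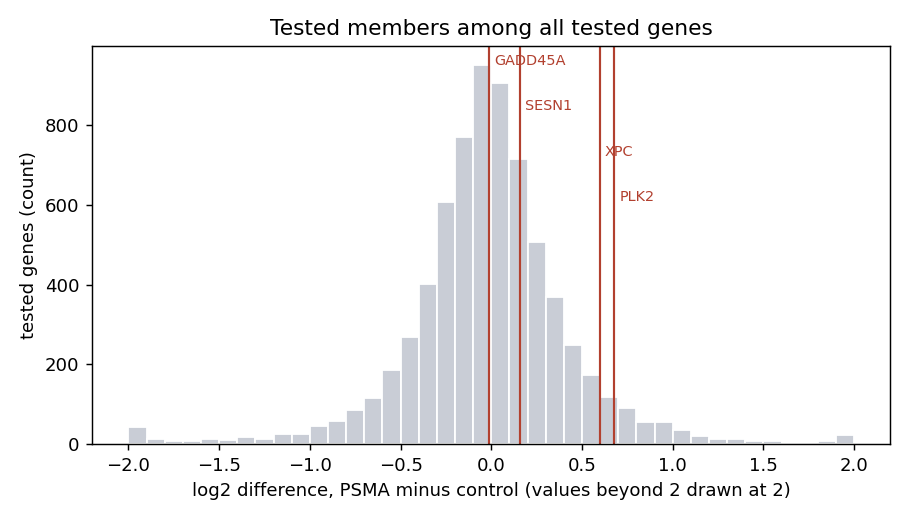
Count of tested genes by log2 difference (PSMA minus control), with lines at the 4 tested members. GADD45A sits at the centre of the distribution, SESN1 beside it, and XPC (0.60) and PLK2 (0.68) on its right flank.

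PLK2 and XPC lay among genes that had mostly risen too. The 5 nearest tested genes on either side of each member were taken in RefSeq order. Of all tested genes, 29.6% were higher and 32.8% lower. Around PLK2, on chromosome 5, 8 of 10 neighbours were higher, 1 was lower and 1 did not pass, with a median log2 difference of 0.47 and a range from -0.24 to 0.99. Around XPC, on chromosome 3, 7 of 10 were higher and 3 did not pass, with a median of 0.41 and a range from -0.05 to 1.0. The differences of the 2 members fell inside the range of their neighbours. The part of the neighbourhood in them was not tested.

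SESN1 and GADD45A lay among genes that had mostly fallen, where 32.8% of all tested genes were lower and 29.6% higher. Of the 10 neighbours of SESN1, on chromosome 6, 8 were lower, 1 was higher and 1 did not pass, with a median of -0.24, while SESN1 itself was at 0.16. Of the 10 neighbours of GADD45A, on chromosome 1, 7 were lower and 3 did not pass, with a median of -0.24, while GADD45A was at -0.01. Neighbours of MDM2 on chromosome 12 mostly did not pass (8 of 10, median 0.06), and those of ZMAT3 on chromosome 3 were higher in 5 cases and lower in 1 (median 0.11).

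**Figure D4:**
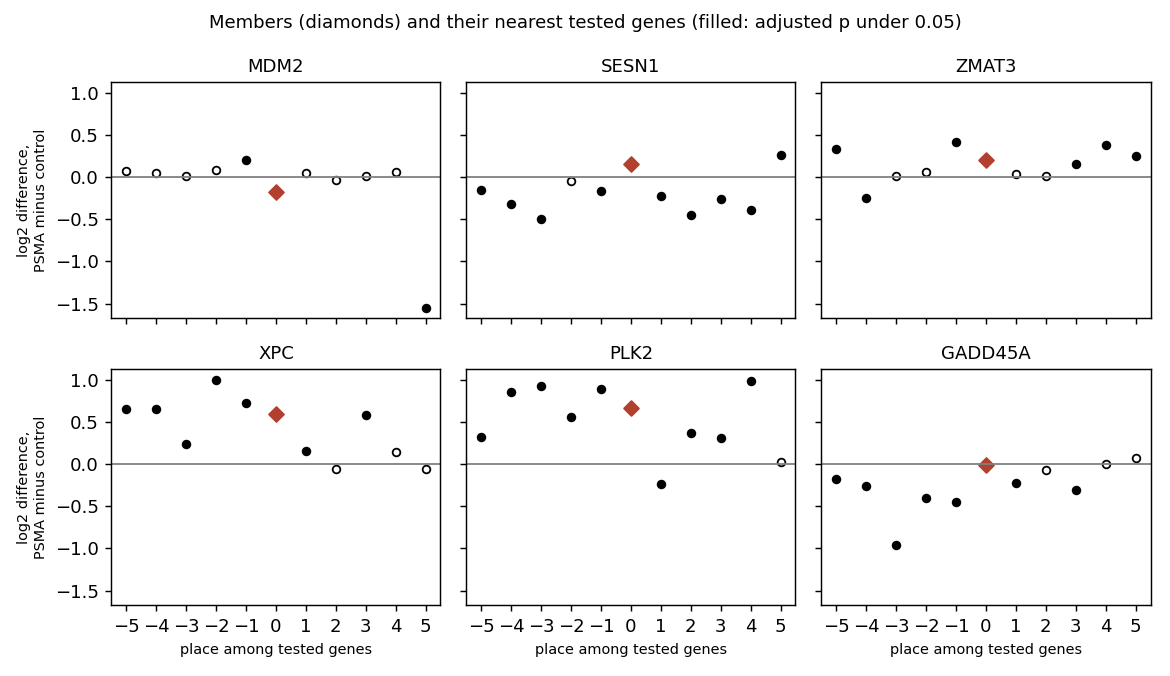
Log2 difference (PSMA minus control) of 6 p53 target genes (diamonds, place 0; MDM2 by its brightest probe set, MDM2 and ZMAT3 without the filter) and of the 5 nearest tested genes on each side, in RefSeq order, filled where adjusted p was under 0.05. The neighbours of XPC and PLK2 are mostly above 0, those of SESN1 and GADD45A mostly below it.

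Among the tested genes, the log2 profile most like that of PLK2 over the 6 arrays, by Euclidean distance after centring, was that of BAG3, an HSP70 co-chaperone (distance 0.0755, log2 difference 0.66). NPAS2, a circadian transcription factor, was next (0.0809, 0.63), followed by the histone variant gene H2AZ2 (0.0912, 0.64). With 6 arrays in 2 groups, this likeness is largely likeness of the group difference.

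Among the other p53 targets listed, more were lower than higher. From this list of 40 genes, 28 were tested, and 14 were lower, 4 were higher and 10 did not pass the limma threshold. That is 64.3% called, against 62.4% of all tested genes, 29.6% higher and 32.8% lower. The median log2 difference was -0.17, against -0.01 over all tested genes. The list was chosen with earlier results of these data known, so these counts describe the listed genes only. The median of the 4 tested members was 0.38. A difference of 2-fold or more that passed was seen in 3 of the 28 (10.7%), against 4.41% of all tested genes.

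By the brightest probe set, the 3 largest decreases were in genes that other stress pathways are also known to induce. GDF15, a secreted stress cytokine, averaged 81.8 ± 6.92 on arrays labelled PSMA and 549 ± 44.2 on arrays labelled control (SD, n = 3 each), a log2 difference of -2.75. ATF3, a stress-induced transcription factor, averaged 88.1 ± 4.81 and 283 ± 15.1 on the same arrays (-1.68). CDKN1A, which encodes the CDK inhibitor p21 and is the classical p53 target in cell cycle arrest, averaged 135 ± 14.7 and 336 ± 9.21 (-1.32). The limma adjusted p-values were 8.3e-08, 2.0e-07 and 2.8e-06. This order depends on the probe set for THBS1, which encodes the secreted matrix protein thrombospondin and is named after its values were seen. Its log2 difference was -0.62 on the brightest of its 4 tested probe sets and -0.94, -1.31 and -2.53 on the others, the last of which passed the filter only through the arrays labelled control, and the mean of all 4, -1.35, was larger in size than the difference of CDKN1A.

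The 3 largest increases were smaller. DRAM1, a lysosomal membrane protein that promotes autophagy, averaged 198 ± 0.593 on arrays labelled PSMA and 117 ± 10.1 on arrays labelled control (log2 difference 0.76, limma adjusted p = 2.0e-05). PHLDA3, an inhibitor of AKT at the membrane, averaged 165 ± 6.01 and 129 ± 5.08 (0.35, adjusted p = 0.000424). APAF1, the scaffold of the apoptosome, averaged 126 ± 9.63 and 99.6 ± 5.74 (0.34, adjusted p = 0.00273).

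**Figure D5:**
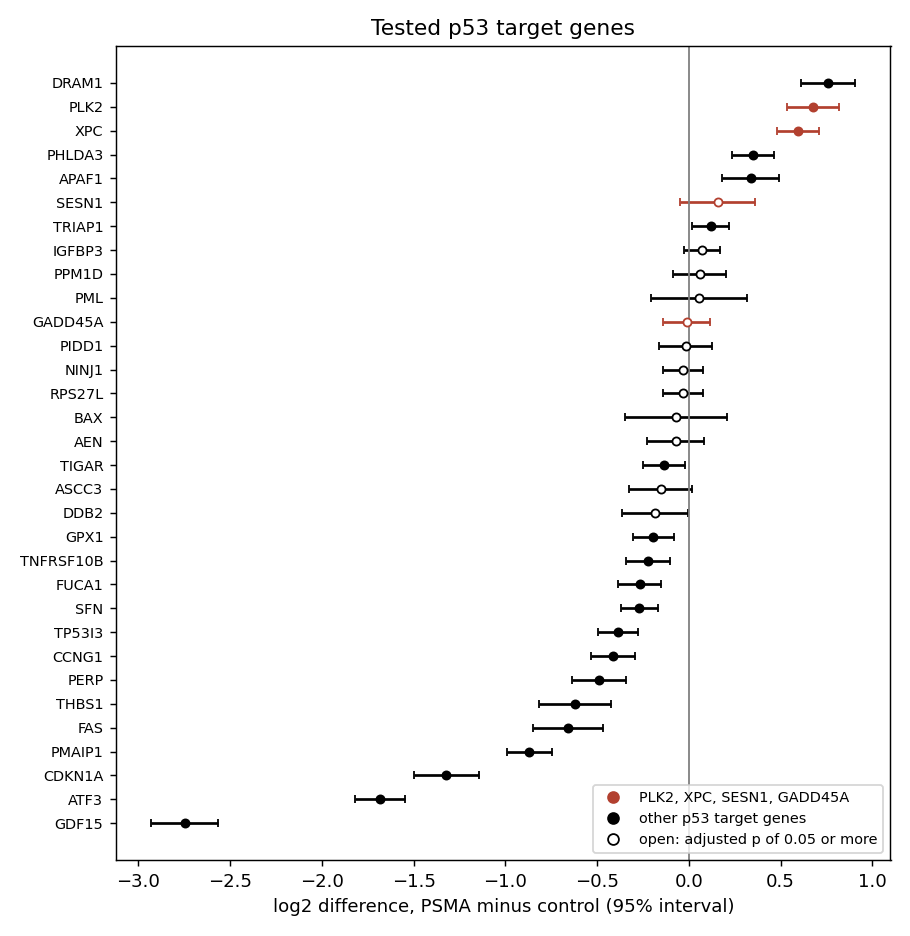
Log2 difference (PSMA minus control) with 95% interval from limma for the 4 tested members (red) and the 28 other tested p53 targets (black). Open points did not pass an adjusted p of 0.05. PLK2 and XPC stand near the top beside DRAM1, and CDKN1A, ATF3 and GDF15 stand lowest.

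Relatives of the listed genes moved in both directions. Those of BTG2 and RRM2B cannot be set beside them, because these members were not analysed. GADD45B, a stress-induced relative of GADD45A, averaged 319 ± 10.1 on arrays labelled PSMA and 204 ± 7.58 on arrays labelled control (SD, n = 3 each; log2 difference 0.65, limma adjusted p = 1.1e-05), and its 3 tested probe sets all rose. BTG3, an antiproliferative relative of BTG2, averaged 348 ± 6.05 and 1145 ± 29.5 (-1.72, adjusted p = 4.4e-08). BTG1 fell by 0.40 and RRM1, the large subunit of ribonucleotide reductase, by 0.28 on the log2 scale, while TOB1 rose by 0.18. TOB2 (-0.05), PLK1 (0.04), PLK4 (-0.01) and RRM2 (-0.10) did not pass, and a dimmer RRM2 probe set was higher by 0.24 with adjusted p = 0.00115. Some relatives were too dim to be tested. In limma without the filter, GADD45G was lower by 0.46 (adjusted p = 0.0145) and PLK3 by 0.56 (adjusted p = 0.000689), while MDM4, given above, did not pass. In all, 2 of the 9 tested genes of this list rose and 3 fell, or 55.6%, against the 62.4% of all tested genes. The count includes RRM1, which is a partner subunit of RRM2B and not its paralog.

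Genes of the p53 family and its regulators were near the background as well, with 5 of 14 tested genes higher and 3 lower (57.1%, against 62.4%) and a median log2 difference of 0.02. TP73, a p53 relative, was dim, at 9.08 ± 0.817 on arrays labelled PSMA and 9.55 ± 0.674 on arrays labelled control. The largest increases were in TP53BP2, a p53-binding protein that favours apoptosis (0.70, limma adjusted p = 3.8e-06), and TP53BP1, which binds chromatin at DNA breaks (0.23, adjusted p = 0.00213). The largest decreases were in the checkpoint kinases CHEK1 (-0.34, adjusted p = 0.00194) and ATR (-0.25, adjusted p = 0.0088).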

How the data were processed

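Gene expression in 6 samples of PC3 cells was read from a table of processed microarray values. Per the submitters' processing notes the authors used GCRMA, which corrects background by probe composition, normalizes across arrays and gives 1 intensity per probe set; the version and any further step are not given in the sources used here. A linear scale was assumed from the deposited values, which ran from 3.76 to 17455 with array medians of 51.7 to 52.9.

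Values were transformed to log2 with no pseudocount. Control probe sets (62) and those not above 52.5 on at least 3 arrays were left out, leaving 11303 (50.9%). PSMA minus control was fitted with limma 3.58.1 (lmFit, eBayes) in R 4.3.3, two-sided, adjusted over all 11303 by Benjamini-Hochberg at 0.05; by probe set 60.6% passed. A gene was called by its brightest tested single-gene probe set. The same code was tested on simulated data. Symbols came from the platform annotation, 19052 of 19064 being matched to RefSeq (GRCh38.p14) with 0 updated, and sequences came from RefSeq. Named genes were all members, the extremes of each list, all tested relatives of members and the 3 profiles nearest PLK2. Members and lists were chosen with earlier results of these data known. Within groups arrays correlated at 0.9976 to 0.9981, between groups at 0.9874 to 0.9878, across probe sets. Precision is limited by 3 arrays per group. Alternatives covered normalization, filter, floor, pseudocount, variance model, minimum fold, probe set choice and leaving out each array. Summaries and plots were made in Python 3.11.15 (pandas 2.3.3, numpy 2.4.6, matplotlib 3.10.9).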

Additional observations from a re-analysis of the deposited data

How the results depend on the processing

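The call on PLK2 and XPC held, with 2 member genes past the threshold, under all 14 alternatives, including the 6 that left out an array (range 2 to 2). The PLK2 log2 difference ran from 0.62 to 0.73 and that of XPC from 0.54 to 0.64. The filters, the floor and the probe set average could not change these differences. Each gene has a single probe set, above the median on every array. SESN1 missed the threshold throughout, with adjusted p from 0.0611 to 1.0. GADD45A, which passed nowhere, changed sign with quantile normalization (0.018) and when arrays were left out (-0.059 to 0.017). Tested against a minimum of 1.2-fold, 2510 probe sets passed in all and 9 other p53 targets, against 6846 and 18. Leaving out arrays gave 6078 to 6822 probe sets and 16 to 18 other targets. No paired analysis was possible because the groups share no replicate numbers. Low signal limits MDM2, the filter kept ZMAT3 out of the test, and 3 arrays per group limit the rest.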

Other observations

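The listed genes of nucleotide excision repair, which XPC starts across the genome, did not move as a whole. Of the 10 listed repair genes other than XPC that were above the median of all values on every array, 1 rose, 2 fell and 7 did not pass in limma. Their median log2 difference was -0.06. Of all tested genes, 62.4% passed, 29.6% higher and 32.8% lower. ERCC5, the endonuclease that cuts on the 3' side of the lesion, averaged 119 ± 14.0 on arrays labelled PSMA and 64.6 ± 8.73 on arrays labelled control (SD, n = 3 each; log2 difference 0.88, adjusted p = 0.000242). ERCC2, a helicase of TFIIH, averaged 66.9 ± 3.70 and 37.4 ± 1.85, and it passed the filter only through the arrays labelled PSMA, so it is left out of that count. The other helicase of TFIIH, ERCC3, fell by 0.18 and ERCC8, which acts in the branch for transcribed genes, fell by 0.24 on the log2 scale. The direct partners of XPC were not past the threshold, with RAD23B at -0.33 (adjusted p = 0.105) and CETN2 at 0.07 (adjusted p = 0.281). On that RAD23B probe set the arrays labelled control read 1165, 1663 and 1191. A second tested RAD23B probe set was at -0.07 (limma adjusted p = 0.299).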
